A study of Mus musculus with 2 samples.

Results

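Gpnmb and Fabp4 macrophages are a population of macrophages from the ischemic mouse brain with the transcript profile of lipid-laden, or foamy, macrophages. They were chosen by their own transcript counts. A cell was taken when at least 20 of every 10,000 of its unique molecular identifiers (UMIs, counted transcripts) came from Gpnmb and at least 1 came from Fabp4. It also had fewer than 10 per 10,000 from 6 microglia genes together (P2ry12, Tmem119, Sparc, Gpr34, Olfml3 and Siglech), fewer than 3 Arg1 UMIs and 0 Marco UMIs. Fewer than 3 UMIs of 4 cycling genes (Mki67, Top2a, Birc5 and Ube2c) and fewer than 20 per 10,000 of S100a8 and S100a9 were allowed. The rule took 1158 of 22960 cells. The study sorted CD45+CD11b+CD3-F4/80+ cells, which are leukocytes with myeloid and macrophage surface proteins, from the ischemic brain of Foxp3Egfp mice aged 6 to 8 weeks after a PBS flush. These mice carry a green fluorescent reporter at Foxp3, which encodes a factor of regulatory T cells. There was 1 group with 2 replicate libraries and no uninjured control, so nothing here compares stroke with no stroke. The labels state neither the time after stroke nor whether the libraries came from separate animals, and p-values may therefore measure technical spread only.

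Foamy macrophages form where phagocytes take up more lipid than they can break down or pass on, as in atherosclerotic plaques, demyelinating lesions and infarcts. Lipoproteins and dead-cell membranes enter through scavenger receptors and are broken down by acid hydrolases in lysosomes, which a vacuolar proton pump keeps acidic. The released fatty acids and cholesterol are carried by fatty-acid-binding proteins, stored as esters in lipid droplets, or exported on apolipoprotein E. Gpnmb is a transmembrane glycoprotein of late endosomes and lysosomes, and Fabp4 is a fatty-acid-binding protein of adipocytes and macrophages. Lipid itself was not measured in these libraries, so the word foamy rests on transcripts alone.

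The libraries differed sharply in how many such cells they held. Replicate 1 held 1140 members among 15050 cells, or 7.57% (exact binomial 95% interval 7.16% to 8.01%). Replicate 2 held 18 among 7910 cells, or 0.228% (0.135% to 0.359%). Among cells that passed the microglia, Marco, cycling and neutrophil conditions, members made up 21.4% of 5333 cells and 1.4% of 1282 cells. The intervals cover counting error only, and no test was made between 2 single libraries. Other Gpnmb thresholds gave the same order of the libraries. At 10 or more per 10,000 the rule took 1345 and 36 cells, and at 40 or more it took 637 and 5. A single condition kept out most near-members. In replicate 1, 1194 cells failed only on having no Fabp4 UMI and 342 only on Gpnmb. In replicate 2, 75 failed only on Gpnmb and 56 only on Fabp4. Levels given below for the members of replicate 2 rest on those 18 cells, and the tests on the 36 of the wider gate.

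The libraries held 101893367 and 62850768 UMIs, and the median cell had 5356 and 5892 UMIs. Members were deeper, with medians of 9318 and 10183 UMIs, against 4589 and 7610 in the Arg1 macrophages described below. A rule that asks for a Fabp4 UMI favours deep cells, and its part in the counts was not tested beyond thinning. Cell barcodes present in both libraries numbered 31, against 17.5 expected from the size of the barcode list, and 1 member of replicate 1 carried such a barcode. Scrublet, a doublet caller, marked 1426 cells of replicate 1 and 0 of replicate 2, which counts as a failed call in replicate 2. Among the cells with the highest doublet scores were 42 of the 1140 members of replicate 1 (3.68%) and 0 of the 18 of replicate 2.

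The rule genes are a description of the choice and carry no test. Summed over the members, Gpnmb stood at 4843 CPM (its UMIs scaled to the summed UMIs of the group) in replicate 1 and 3399 CPM in replicate 2, and Fabp4 at 564 and 383 CPM. Per cell, Gpnmb ranged from 20.1 to 174 per 10,000 UMIs in replicate 1 with a median of 42.5, and from 21.0 to 67.0 in replicate 2 with a median of 31.4. In replicate 1, 120 cells just inside it (20 to 25 per 10,000) had 8583 CPM Fabp5 and 846 CPM Ms4a7, and 112 cells just outside (15 to 20 per 10,000) had 8820 and 814 CPM. Spp1 had 14717 CPM just inside and 17847 CPM just outside. The 261 cells above 60 per 10,000 had 13123 CPM Fabp5 and 28961 CPM Spp1. In replicate 2, the 4 cells just inside and the 8 just outside differed more, with 2811 and 11216 CPM Fabp5, 13515 and 4562 CPM Spp1, and 519 and 51.3 CPM Lpl. Gpnmb lies on chromosome 6 (49036546 to 49070929) and Fabp4 on chromosome 3 (10204088 to 10208576) in the GENCODE vM21 annotation of GRCm38. Fabp5 lies on the same stretch of chromosome 3 (10012548 to 10016607).

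Fabp5, Spp1, Ms4a7 and Atp6v0d2 were not part of the rule and served as a check of the label. Fabp5, another fatty-acid-binding protein, had 11141 CPM in the members of replicate 1 and 8108 CPM in those of replicate 2. Spp1, which encodes the secreted matrix protein osteopontin, had 21737 and 13041 CPM. Both were high in both libraries, and their values in microglia were 597 and 202 CPM for Fabp5 and 1450 and 542 CPM for Spp1. Ms4a7, a membrane protein of infiltrating and border macrophages that microglia lack, had 840 and 855 CPM in members and 62.8 and 14.4 CPM in microglia. Atp6v0d2, a proton pump subunit of osteoclasts and macrophages, had 74.7 and 202 CPM in members and 1.51 and 0.0888 CPM in microglia. All 4 genes were thus higher in members than in microglia in both libraries, and the label's transcripts were present. The check covers microglia only. Against Arg1 macrophages, Fabp5, Ms4a7 and Spp1 did not pass the test described below, and Ms4a7 was required of the antigen-presenting macrophages gated there.

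Free RNA, taken from barcodes under 100 UMIs, carried the same genes. It held 1172 CPM Gpnmb and 4176 CPM Fabp5 in replicate 1, and 152 and 984 CPM in replicate 2. T cells were used to gauge how far that reached, though whether they express some of these genes themselves was not tested. A Fabp5 UMI was found in 35.7% of 70 T cells of replicate 1 (median 1586 UMIs) and 14.9% of 74 of replicate 2 (median 3302), against 99.9% and 100% of members. Ms4a7 was found in 14.3% and 2.70% of T cells and in 96.0% and 77.8% of members. Atp6v0d2 was found in 1.43% and 0% of T cells and in 28.4% and 38.9% of members. With each cell thinned to 2000 UMIs, which left out 4 members of replicate 1, 0 of replicate 2, and 46 and 5 T cells, Atp6v0d2 remained in 11.97% and 11.1% of members and in 0% of T cells of both libraries. At that depth Fabp5 was found in 58.3% of the 24 T cells left in replicate 1 and 8.70% of the 69 in replicate 2, against 99.9% and 94.4% of members. Spp1 was found in 50% and 5.80% of T cells, against 99.03% and 88.9% of members, and Gpnmb in 37.5% and 1.45% of T cells.

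**Figure D1:**
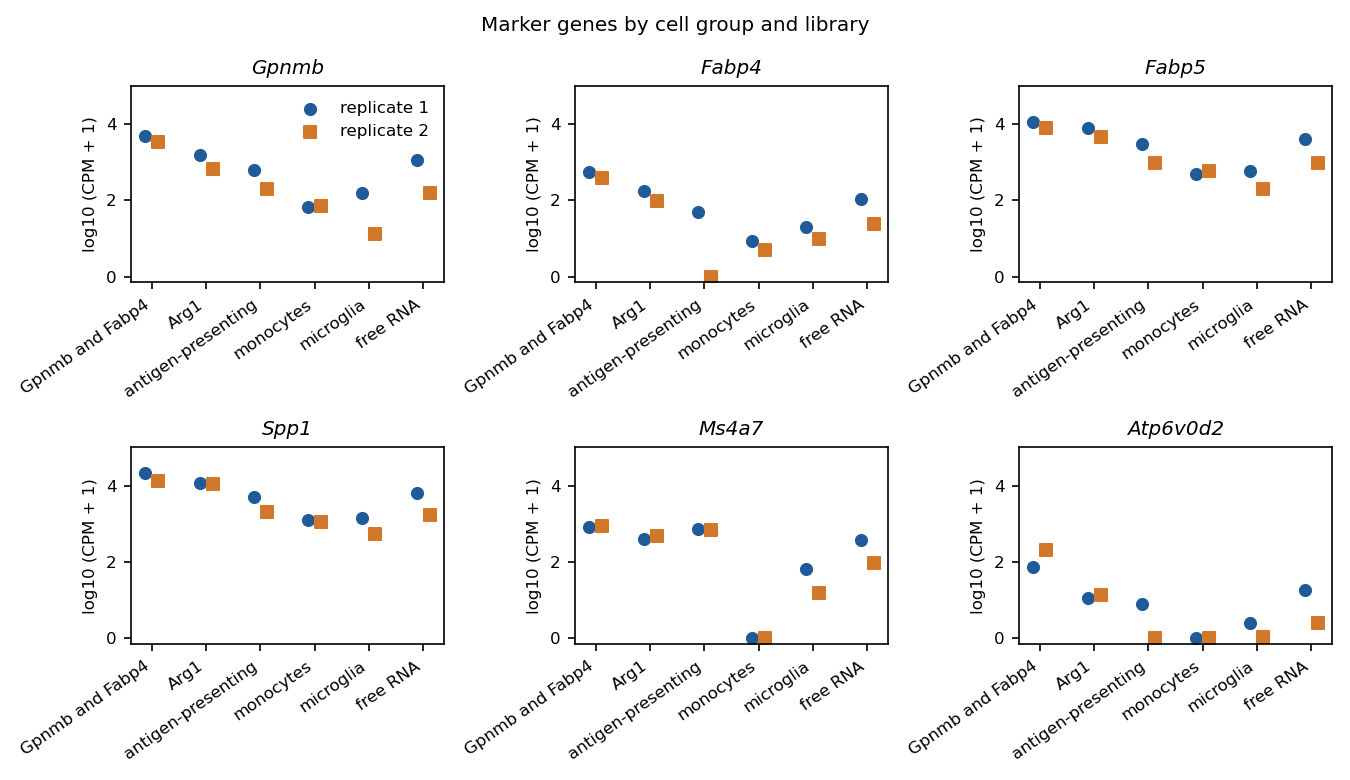
Level of the 6 marker genes, as log10 of CPM plus 1, in the summed cells of each group and in free RNA; circles are replicate 1 and squares replicate 2. Gpnmb and Fabp4 chose the members. Fabp5 lay highest in the members (11141 and 8108 CPM), and Atp6v0d2 stood at 74.7 and 202 CPM in members and at 1.51 and 0.0888 CPM in microglia.

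The promoters of 2 of these genes are shown because Gpnmb chose the cells and Spp1 was the most abundant marker outside the rule. Both run 5′ to 3′ over the 250 bases before the RefSeq start on the plus strand of GRCm38.p6, Gpnmb at chr6:49036268-49036517 and Spp1 at chr5:104434861-104435110. Of the 6 markers, 3 had an entry in the table used, with 5 entries in all.
Gpnmb: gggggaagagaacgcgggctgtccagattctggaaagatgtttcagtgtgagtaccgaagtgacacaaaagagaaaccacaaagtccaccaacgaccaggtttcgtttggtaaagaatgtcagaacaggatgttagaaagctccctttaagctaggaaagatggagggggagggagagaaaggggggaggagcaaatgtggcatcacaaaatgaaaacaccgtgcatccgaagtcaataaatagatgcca
Spp1: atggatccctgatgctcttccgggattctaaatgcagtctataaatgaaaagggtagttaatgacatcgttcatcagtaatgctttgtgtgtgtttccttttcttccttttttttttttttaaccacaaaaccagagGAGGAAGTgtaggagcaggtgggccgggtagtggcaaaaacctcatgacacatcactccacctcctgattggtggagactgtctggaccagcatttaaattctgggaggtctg
Both strands were searched for CACGTG (E-box), TCATGTG (M-box) and TCACGTGA (an E-box with the flanks of lysosomal genes), which are bound by the MITF and TFE family, and for TGANTCA (AP-1). The capitals in Spp1 mark GAGGAAGT, a core of the macrophage factor PU.1, at 113 bases before the start; this motif was added after the letters had been seen. None of the other letters occurred in these 2 windows. Of the 3 entries not shown, a second Spp1 start and 1 of 2 Ms4a7 starts held none of these letters, and the other Ms4a7 start had TGANTCA at 81 bases before it. Among 32851 promoters of this length, CACGTG occurred in 6.02%, TCATGTG in 3.25%, TCACGTGA in 0.785%, TGANTCA in 6.75% and GAGGAAGT in 2.44%. A match is a string of letters and was not tested as a binding site.

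For tests, 4 other populations were gated from the same libraries. Arg1 macrophages met the same microglia, Marco, cycling and neutrophil conditions with at least 3 Arg1 UMIs (517 and 248 cells). No Gpnmb or Fabp4 condition was set for that group. It therefore holds the 50 and 11 cells that failed the rule on Arg1 alone. A Gpnmb UMI was found in 82.6% and 55.6% of Arg1 macrophages. Antigen-presenting macrophages had Ms4a7 and at least 50 per 10,000 UMIs from H2-Aa, H2-Ab1, H2-Eb1 and Cd74. Monocytes had Plac8 and Ly6c2 and no Ms4a7, and microglia had at least 30 per 10,000 from the 6 microglia genes (5556 and 4997 cells). Because 18 cells were fewer than the 20 set as the least for a fit, the tested population was the wider one with Gpnmb at 10 or more per 10,000 (1345 and 36 cells), which contains all members. The antigen-presenting group then held 85 and 98 cells with Gpnmb under 10. Counts were summed per library and population and fitted with edgeR with the library as a block. Log2 differences and adjusted p-values below come from that fit, with rule and gate genes left out, while CPM values are those of the members by the rule and of the other groups as gated by it. Both sides of each comparison came from the same 2 libraries, and the comparisons share the foamy cells.

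Against Arg1 macrophages, members had more transcripts of lysosomal hydrolases and apolipoprotein E and fewer of glycolytic, chemokine, inflammatory and interferon genes. Arg1 macrophages carry arginase 1, which turns arginine into ornithine. Of 9148 genes tested, 220 were higher in foamy cells (2.40%) and 380 lower (4.15%). Without the library block the counts were 107 and 261, and with cells thinned to 2000 UMIs they were 71 and 167 of 5433. Apoe, the lipoprotein that exports cholesterol, stood at 110669 and 82162 CPM in members and at 50648 and 33768 CPM in Arg1 macrophages. Both libraries were higher, with no overlap, and the difference was 1.31 on the log2 scale (SE 0.15, edgeR adjusted p = 9.55e-05). With cells thinned to 2000 UMIs, members held a mean of 229 and 151 Apoe UMIs and Arg1 macrophages 91.5 and 57.4. T cells held 78.1 in replicate 1 (24 cells) and 2.35 in replicate 2 (69 cells). How much free RNA added to these Apoe levels was not tested.

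Of 36 lysosomal enzymes and membrane proteins, 16 were higher in foamy cells and 2 lower, with a median of 0.61 on the log2 scale against 0.01 over all genes. Glb1, the lysosomal beta-galactosidase, had 83.2 and 57.0 CPM in members and 38.3 and 20.1 CPM in Arg1 macrophages, a log2 difference of 1.38 (SE 0.24, edgeR adjusted p = 0.0027). Naglu, which degrades heparan sulfate, had 122 and 72.5 CPM against 53.7 and 30.4 CPM (1.38, SE 0.24). Acp5, the tartrate-resistant phosphatase, fell with 180 and 72.5 CPM against 293 and 274 CPM (-0.89, edgeR adjusted p = 0.026), a call lost with DESeq2, without the block and after thinning. Of 17 proton pump subunits, 2 were higher and 0 lower. Atp6v0d2 had 74.7 and 202 CPM against 10.5 and 12.6 CPM, a log2 difference of 2.91 (SE 0.56, edgeR adjusted p = 0.0059) that DESeq2 did not call (adjusted p = 0.43). In replicate 2, 29 of its 39 UMIs came from 1 cell.

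Of 19 lipid uptake and storage genes, 2 were higher, 2 were lower and 15 did not pass (median 0.57). Lpl, the lipoprotein lipase that frees fatty acids, had 479 and 373 CPM in members and 141 and 30.4 CPM in Arg1 macrophages (2.47, SE 0.33, edgeR adjusted p = 0.000296). The call for Lpl was lost without the block. Lipa, the lysosomal acid lipase, was higher by 0.85 on the log2 scale, with 473 and 373 CPM against 342 and 178 CPM; its call was lost with DESeq2 and without the block. Hilpda, a hypoxia-inducible lipid droplet protein, fell, with 167 and 119 CPM against 525 and 435 CPM (-1.32, SE 0.25). Fabp5 had 11141 and 8108 CPM against 8089 and 4647 CPM, and its log2 difference of 0.84 (SE 0.32) did not pass (edgeR adjusted p = 0.16). Neither did Spp1 (0.46, SE 0.26), Ms4a7 (0.96, SE 0.38), Cd36 (1.02, SE 0.39) or Plin2 (0.57, SE 0.24), the lipid droplet coat protein. Within single libraries, with 10 CPM added to both sides, Spp1 differed by 1.06 in replicate 1 and -0.073 in replicate 2. Fitted with these 2 populations alone, Fabp5, Ms4a7, Cd36 and Plin2 passed on 1 residual degree of freedom, and with no filter on low counts they passed on 4. A p that misses the threshold does not show that these levels were alike.

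The function lists share genes, so their counts are not independent. Ctsd and Ctsb, counted above as lysosomal, and Lpl, counted above as lipid uptake, are also in the next list. Of 23 genes of a lipid-associated macrophage signature, 10 were higher and 0 lower (median 0.57), where 2.40% of all genes were higher. Mmp12, the macrophage elastase, was among them, with 46.0 and 446 CPM in members against 13.4 and 24.8 CPM (2.58, SE 0.55), but 74 of its 86 UMIs in replicate 2 lay in 1 cell and the call was lost after thinning. Outside the lists, Cd5l, a scavenger protein of tissue macrophages induced by lipid-sensing nuclear receptors, had 140 and 20.7 CPM in members and 20.3 and 3.27 CPM in Arg1 macrophages (2.81, SE 0.30). Its level was low in replicate 2, where it rested on 4 UMIs, and its call was lost without the block. Clec12a, an inhibitory C-type lectin, had 124 and 119 CPM against 32.4 and 25.7 CPM (2.03, SE 0.25, edgeR adjusted p = 0.000198). Mfge8, which bridges dying cells to phagocytes, had 90.2 and 15.5 CPM against 19.98 and 9.82 CPM (2.12, SE 0.36) and was not called by DESeq2.

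Most genes of 4 lists were lower. Of 24 glycolysis and hypoxia genes, 17 were lower and 0 higher, with a median of -0.99. Slc16a3, the lactate exporter, had 10.7 and 15.5 CPM in members and 61.9 and 127 CPM in Arg1 macrophages (-2.10, SE 0.27). Vegfa, a growth factor induced by low oxygen, had 20.1 and 171 CPM against 157 and 304 CPM (-2.14, SE 0.52), a call lost with DESeq2 and without the block. Of 17 chemokines, 12 were lower and 0 higher (median -2.63). Cxcl3, which attracts neutrophils, had 5 UMIs in the 1140 members and 1 in the 18, against 397 and 805 CPM in Arg1 macrophages. Pf4, or Cxcl4, had 600 and 57.0 CPM against 6473 and 3176 CPM (-4.01, SE 0.49).

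Of 18 inflammatory mediators, 10 were lower and 0 higher (median -1.45, the same with Il6, which had 0 UMIs in foamy cells, at its bound). Il1b, the cytokine interleukin-1 beta, had 16.4 and 98.4 CPM in members and 203 and 1458 CPM in Arg1 macrophages (-3.68, SE 0.55, edgeR adjusted p = 0.00091). Of 20 interferon-response genes, 14 were lower and 0 higher (median -1.72). Irf7, a master regulator of type I interferon genes, had 15.4 and 51.8 CPM against 83.5 and 345 CPM (-2.38, SE 0.45), a call lost without the block. Of 17 genes of iron, heme and oxidative defence, 6 were lower and 0 higher. Hmox1, which degrades heme, had 570 and 1601 CPM against 6666 and 7331 CPM (-2.49, SE 0.30, edgeR adjusted p = 0.00017), and 215 of its 309 UMIs in the members of replicate 2 came from 1 cell. Fn1, the matrix protein fibronectin of monocytes, had 16.4 and 46.6 CPM against 243 and 654 CPM (-3.83, SE 0.37). Ccr2, the chemokine receptor of recruited monocytes, had 2.38 and 15.5 CPM against 23.6 and 156 CPM (-3.61, SE 0.63). The 6 monocyte markers summed to 180 and 611 CPM in members and to 1143 and 3648 CPM in Arg1 macrophages, and their part in these differences was not tested.

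Against antigen-presenting macrophages, members had more transcripts for lipid uptake, lipid storage and lysosomal acidification, and fewer for inflammation and antigen presentation. Of 9143 genes tested, 208 were higher in foamy cells (2.27%) and 349 lower (3.82%); without the block the number higher was 125, and after thinning the counts were 47 and 119 of 5428. Of 19 lipid uptake and storage genes, 8 were higher and 0 lower, with a median of 1.14. Some of these calls did not hold in other fits. Lpl lost its call without the block, and Msr1 without the block and after thinning. Hilpda lost its call after thinning and with the rule's own Gpnmb gate. Fabp5 stood at 11141 and 8108 CPM in members and at 2973 and 966 CPM in antigen-presenting macrophages (2.99, SE 0.35, edgeR adjusted p = 0.00011). Cd36, the scavenger receptor for oxidized lipoprotein and fatty acids, had 477 and 446 CPM against 130 and 23.5 CPM (2.94, SE 0.48); its adjusted p was 0.055 with DESeq2, and its call was lost without the block. Plin2 had 2485 and 2171 CPM against 1260 and 937 CPM (1.35, SE 0.25, edgeR adjusted p = 0.0038). Soat1, which esterifies cholesterol, had 255 and 280 CPM against 173 and 151 CPM (0.80, SE 0.19), a call lost without the block and after thinning. For Fabp5, Cd36, Plin2 and Soat1, both libraries of members lay above both of the other group.

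Spp1 was higher as well, with 21737 and 13041 CPM against 5017 and 2015 CPM (2.61, SE 0.27, edgeR adjusted p = 4.13e-05). Igf1, a growth factor, had 312 and 218 CPM against 95.2 and 24.7 CPM (2.82, SE 0.34). Of 36 lysosomal genes, 19 were higher and 2 lower (median 0.82), and of 17 proton pump subunits 9 were higher and 0 lower (median 0.63). Atp6v1a, the catalytic subunit of the pump, had 236 and 181 CPM against 147 and 65.0 CPM (1.59, SE 0.21, edgeR adjusted p = 0.00025). Ctsk, the collagen-degrading cathepsin K of osteoclasts, had 24.02 and 67.4 CPM against 1.73 and 3.36 CPM; it passed but rested on 3 UMIs in the other group of the fit, and its call was lost after thinning. Of its 262 UMIs in the members of replicate 1, 184 came from 1 cell. F7, coagulation factor VII, had 94.9 and 124 CPM against 12.1 and 11.2 CPM (3.62, SE 0.61), and 16 of its 24 UMIs in replicate 2 came from 1 member. Of 20 genes of cholesterol export and synthesis, 5 were higher and 0 lower. Abca1, the cholesterol exporter, had 432 and 176 CPM against 239 and 93.0 CPM (1.10, SE 0.21), a call lost without the block and after thinning.

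Class II antigen presentation was lower in part by choice, since the 4 gate genes H2-Aa, H2-Ab1, H2-Eb1 and Cd74 defined the other group. Of the 10 other genes of that list, 8 were lower and 0 higher. Cd83 and Cd86, among the lower ones, do not encode class II molecules. H2-DMb1, a chain of the peptide-loading chaperone, had 45.6 and 67.4 CPM in members and 218 and 463 CPM in antigen-presenting macrophages (-2.75, SE 0.25). Of 19 immediate-early and heat-shock genes, 15 were lower and 0 higher (median -1.25). Egr1, an activation-induced transcription factor, had 30.4 and 51.8 CPM against 165 and 183 CPM (-2.34, SE 0.26, edgeR adjusted p = 6.62e-05). Such genes can be induced while tissue is dissociated, and their part in the result was not tested. Of 20 interferon genes 12 were lower, of 18 inflammatory mediators 9 and of 17 chemokines 7, with 0 higher in each list. Il1b had 16.4 and 98.4 CPM against 635 and 1546 CPM (-4.47, SE 0.56), and Ccl5, a T cell attractant, had 7.79 and 0 CPM against 126 and 403 CPM. Of 24 glycolysis genes 1 was higher and 0 lower.

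**Figure D2:**
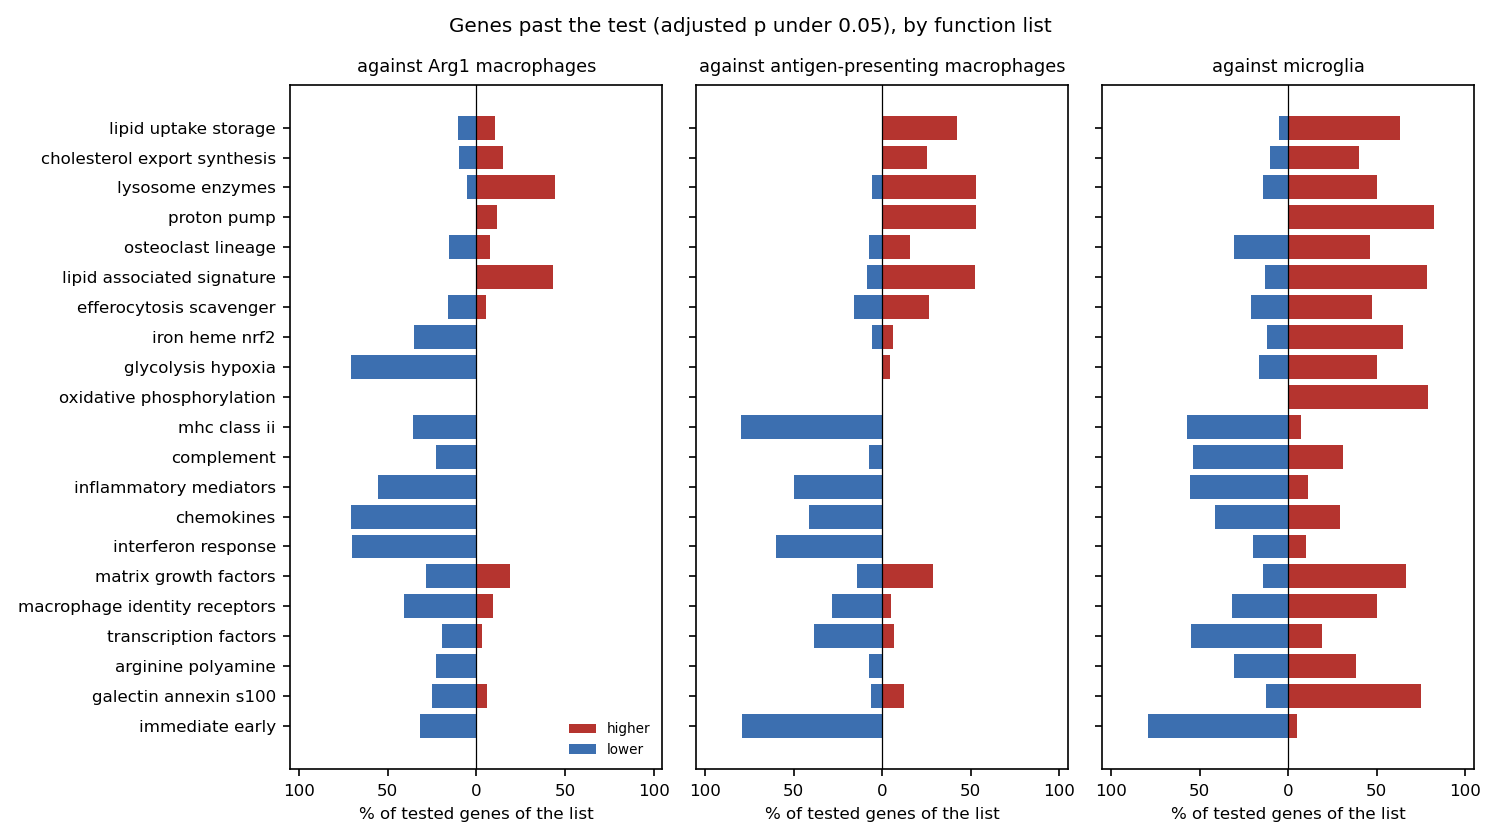
Share of the tested genes of each function list that were higher (right) or lower (left) in foamy cells than in Arg1 macrophages, antigen-presenting macrophages and microglia at an edgeR adjusted p under 0.05. Glycolysis genes were lower than in Arg1 macrophages (17 of 24), and 1 of 24 was higher than in antigen-presenting macrophages. Against these groups in the order named, lysosomal genes were higher in 16, 19 and 18 of 36 and lower in 2, 2 and 5. Of all genes tested, 2.40%, 2.27% and 22.1% were higher in that order, and 4.15%, 3.82% and 24.7% lower.

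**Figure D3:**
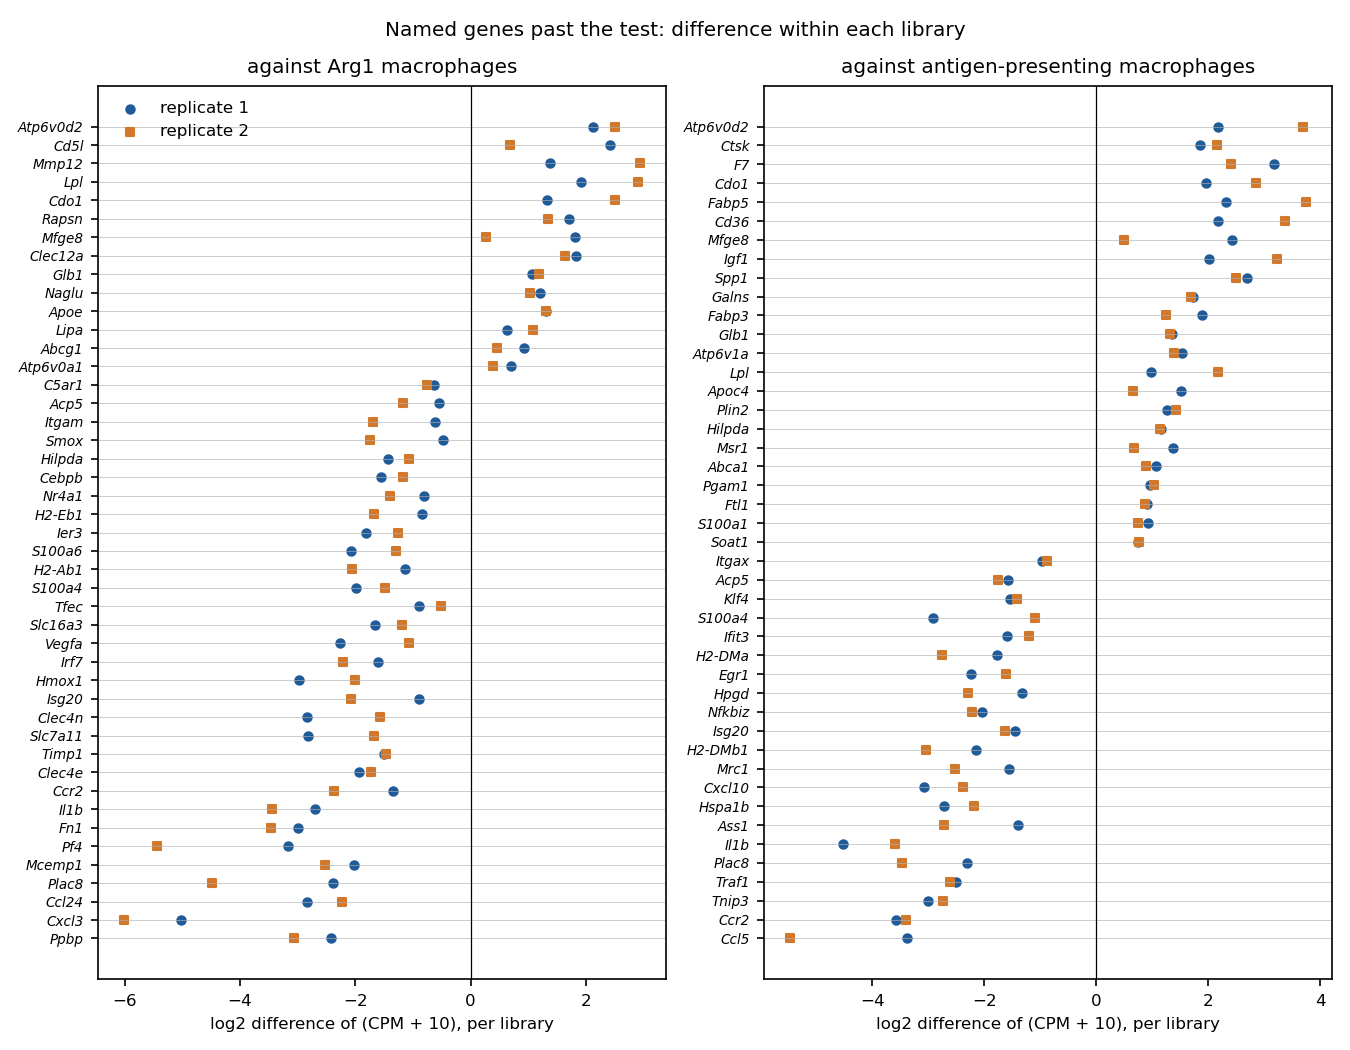
Log2 difference within each library, with 10 CPM added to both sides, for the named genes that passed the test against Arg1 macrophages (left) and antigen-presenting macrophages (right); circles are replicate 1 and squares replicate 2, over 1345 and 36 foamy cells. Both libraries lie on the same side of 0 for each gene, as the naming rule asked of all but the lipid and osteoclast genes. Apoe lay at 1.31 in both libraries, and Mfge8 at 1.82 and 0.27.

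The comparison with microglia, the resident macrophages of the brain, had the most called genes of the 3. Summed UMIs in the fit were 25889575 and 33766140 for microglia and 3053390 and 2138938 for Arg1 macrophages. Antigen-presenting macrophages had 405825 and 858276. The part of depth in the number called was not tested. Of 9148 genes tested, 2024 were higher in foamy cells (22.1%) and 2256 lower (24.7%), so counts within lists have to be read against those shares. Of 19 lipid uptake and storage genes, 12 were higher and 1 lower (median 1.93), of 17 proton pump subunits 14 and 0, and of 36 lysosomal genes 18 and 5. Cd36 had 477 and 446 CPM in members and 14.2 and 1.78 CPM in microglia (6.37, SE 0.47, edgeR adjusted p = 3.47e-08). Plin2 had 2485 and 2171 CPM against 274 and 135 CPM (3.99, SE 0.27, edgeR adjusted p = 2.02e-08). Pparg, a lipid-sensing nuclear receptor that drives Fabp4, had 8.34 and 25.9 CPM against 0.695 and 0.444 CPM (4.53, SE 0.50), a low level in both. Lgals3, a galectin of phagocytic macrophages, had 5598 and 7772 CPM against 315 and 128 CPM (5.31, SE 0.38). Of 19 oxidative phosphorylation genes, 15 were higher and 0 lower (median 0.76). Mgll, which splits monoglycerides, was the lipid gene that fell, with 2.02 and 46.6 CPM against 28.5 and 38.6 CPM; all 9 of its UMIs in replicate 2 came from 1 member, and DESeq2 did not call it.

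Lower than in microglia were 15 of 19 immediate-early and heat-shock genes, with 1 higher. Of 14 genes on the class II list, 8 were lower and 1, Cd40, was higher. The lower ones were H2-Oa, H2-Ob, H2-DMa, H2-DMb1, H2-DMb2, Cd80, Cd83 and Cd86. Cd40, Cd80, Cd83 and Cd86 do not encode class II molecules. H2-Aa, H2-Ab1, H2-Eb1 and Cd74 were not called. Sall1, the transcription factor that keeps microglial identity, had 2.48 and 0 CPM in members and 144 and 140 CPM in microglia. Cd86, a costimulatory ligand, had 15.6 and 36.3 CPM against 148 and 200 CPM (-2.53, SE 0.19). The 6 lowest genes overall included Col1a1, Col3a1 and Hba-a1. Fibroblast and mural cell markers summed to 559 and 531 CPM in the gated microglia and to 7.61 and 0 CPM in members, and their part in those differences was not tested.

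Genes of the osteoclast lineage were mixed. Osteoclasts share Atp6v0d2, Acp5, Ctsk and Gpnmb with foamy macrophages and fuse through Dcstamp and Ocstamp. Dcstamp, Ocstamp and Oscar had 0 UMIs among the members of both libraries, which at these depths allows up to 0.338 and 19.1 CPM each. Of 13 tested genes of this list, 1 was higher and 2 lower than in Arg1 macrophages, 2 and 1 against antigen-presenting macrophages, and 6 and 4 against microglia. Over all genes tested, the shares higher and lower were 2.40% and 4.15% against Arg1 macrophages. They were 2.27% and 3.82% against antigen-presenting macrophages and 22.1% and 24.7% against microglia. Acp5 ordered the groups differently from Atp6v0d2. It stood at 180 and 72.5 CPM in members, below the 516 and 406 CPM of antigen-presenting macrophages (-1.70, SE 0.23) and above the 14.4 and 6.25 CPM of microglia (4.27, SE 0.24). Mitf and Tfe3, which encode transcription factors of lysosomal genes, were not called against Arg1 or antigen-presenting macrophages, and Tfeb was not called in any of the comparisons. Against microglia Mitf was not called, and Tfe3 was lower (-1.05, SE 0.22), a call lost after thinning. Tfec, of the same family, was lower than in Arg1 macrophages (-1.99, SE 0.46) and higher than in microglia (1.26, SE 0.45). It had 37 UMIs in the members of replicate 1 and 1 in those of replicate 2.

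T and NK cell markers summed to 2.84 and 0 CPM over 9 genes, and Gzma and Klrb1c had 0 UMIs. Dendritic cell markers summed to 2.38 and 0 CPM over 9 genes, with 3 and 0 of the genes seen, and Flt3, Zbtb46 and Ccr7 among those at 0. The 10 microglia markers summed to 1655 and 1399 CPM in members and to 13789 and 18905 CPM in microglia. They include Gpr34, a gene of the microglia score that gated both groups, so this gap followed in part from the choice of cells. The 9 markers of border macrophages, which line vessels and meninges, summed to 1171 and 523 CPM in members, above the 366 and 214 CPM of microglia and below the 7179 and 3851 CPM of Arg1 macrophages. In Arg1 macrophages Pf4 alone made up 6473 and 3176 CPM of that sum. Antigen-presenting macrophages had 764 and 653 CPM, below members in replicate 1 and above them in replicate 2. Of these markers 8 and 6 were seen in members, led by Pf4 at 600 CPM in replicate 1 and Stab1 at 238 CPM in replicate 2, and Lyve1 had 0 UMIs in both libraries. Endothelial markers summed to 316 and 218 CPM over 10 genes, of which Pltp, a lipid transfer protein, made up 308 and 202 CPM, and Cldn5 was at 0.

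Levels varied widely among single members. Apoe ranged from 17.0 to 3345 per 10,000 UMIs over the 1140 members of replicate 1, with a median of 1089, and from 19.9 to 2242 over the 18 of replicate 2, with a median of 654. Spp1 ranged from 0 to 1473 (median 156) and from 0 to 862 (median 79.3). In replicate 2, 1 cell held 730 of 2517 Spp1 UMIs. Lpl had a median of 2.98 per 10,000 in replicate 1 and 0 in replicate 2, where 7 of 18 members held its UMIs. Cd36 likewise had medians of 3.23 and 0, again with 7 of 18 members. Fabp5 ranged from 0 to 357 (median 103) in replicate 1 and from 6.49 to 226 (median 70.5) in replicate 2.

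**Figure D4:**
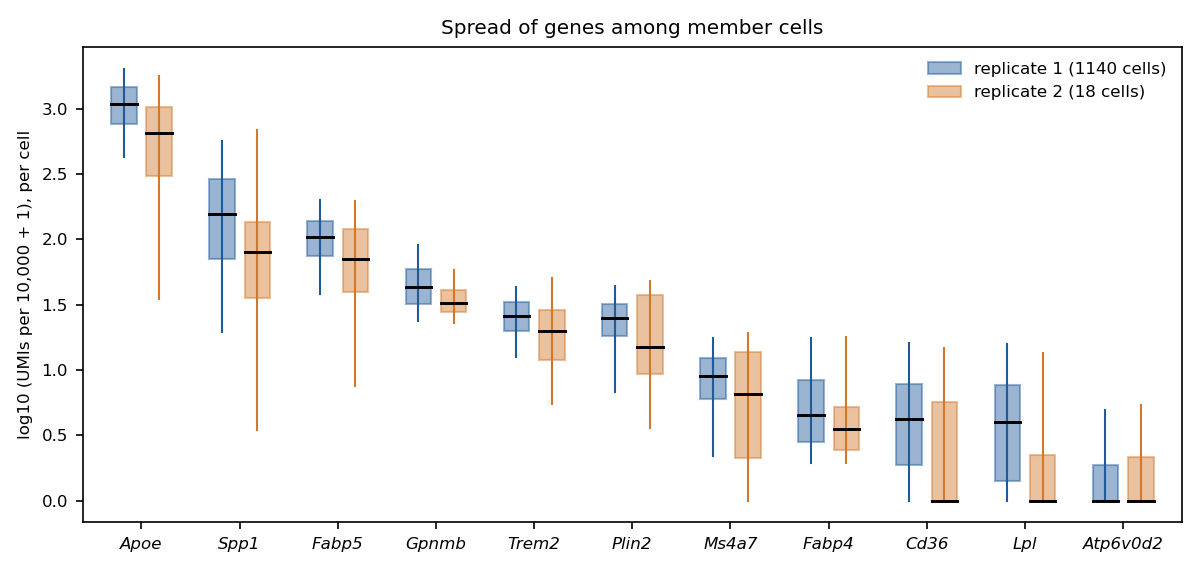
Spread of 11 genes over single members, as log10 of UMIs per 10,000 plus 1; boxes span the quartiles, black lines are medians and thin lines run from the 5th to the 95th percentile. Median Apoe was 1089 per 10,000 in replicate 1 (1140 cells) and 654 in replicate 2 (18 cells), and median Lpl was 2.98 and 0.

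Apoe was used to order the members, a choice made after the data had been seen. Each cell's UMIs were split at random into 2 equal parts. The first part ranked the 1140 members of replicate 1 by Apoe into 3 groups of 380, and the other part, without Apoe, gave the levels. No test was made, since the genes come from the cells so ordered. Apoe made up 6.31%, 10.9% and 16.7% of the second part in the low, middle and high groups, and median depth was 9982, 9716 and 8476 UMIs.

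Genes that were higher step by step with Apoe included other secreted and complement genes. Selenop, which carries selenium, went from 424 through 854 to 1312 CPM, and Trf, the iron carrier transferrin, from 177 through 335 to 614 CPM. C1qa, a subunit of complement C1q, went from 2833 through 4722 to 6147 CPM. Trem2, the lipid receptor of phagocytes, went from 2115 through 3132 to 3716 CPM, and the exporter Abca1 from 394 through 484 to 588 CPM. Going the other way, S100a6, a calcium-binding protein, went from 578 through 246 to 76.5 CPM, and S100a4, a monocyte-associated member of that family, from 192 through 66.4 to 15.2 CPM. The monocyte attractant Ccl2 went from 553 through 280 to 186 CPM, and Hmox1 from 1065 through 408 to 354 CPM. Genes of lipid uptake and handling were mixed. The scavenger receptors Cd36 and Msr1 had 759, 481 and 308 CPM and 190, 139 and 95.3 CPM, while the endocytic receptor Lrp1 had 397, 416 and 482 CPM and Lipa 508, 556 and 563 CPM. Atp6v0d2 had 55.2, 100 and 96.0 CPM. The summed groups do not show which of these genes were high in the same cells. In replicate 2 the groups held 10, 6 and 2 cells, where S100a6 went from 909 through 679 to 366 CPM and Selenop from 200 through 792 to 1706 CPM. Other genes did not keep the order there: C1qa had 1575, 2349 and 1828 CPM, Cd36 266, 707 and 0 CPM, and Abca1 66.5, 424 and 0 CPM.

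**Figure D5:**
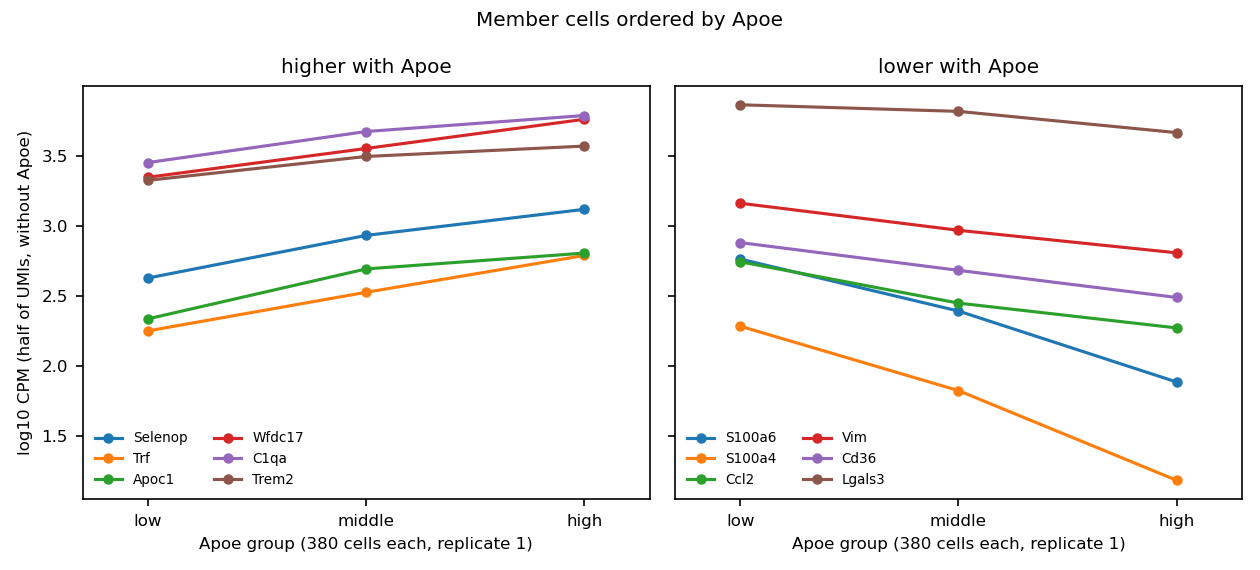
Level of genes, as log10 CPM over the part of the UMIs not used for ranking and without Apoe, in the low, middle and high Apoe groups of 380 members each in replicate 1. Selenop went from 424 to 1312 CPM and S100a6 from 578 to 76.5 CPM between the low and the high group.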

How the data were processed

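Per the file headers, Cell Ranger 4 wrote the deposited matrices, whose values are UMI counts with no normalization. The builds GRCh38, GRCm38 and mm10 appear in the submitters' processing notes without a role, beside Seurat 4, Cell Ranger 4.0.0 and STAR 2.5.1b. How reads common to near-identical genes were treated is not given in the sources, so H2 genes may share reads. Barcodes with at least 1000 UMIs, 500 genes and at most 10% mitochondrial UMIs were kept as cells (Python 3.11.15, scanpy 1.11.5 for Scrublet). Counts were summed per library and population and tested with edgeR 4.0.16 (TMM, filterByExpr, glmQLFit and glmQLFTest, library as block, 4 residual degrees of freedom, Benjamini-Hochberg over all tested genes, threshold 0.05) in R 4.3.3, with DESeq2 1.42.0 as an alternative. The spread comes from 5 populations. The code was checked on simulated data. Replicate 2 held fewer than the 20 member cells required, so the wider Gpnmb gate was tested in place of the rule.

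Members, gates and the 21 function lists were chosen with earlier results of these data known. Named were Fabp5, Ms4a7, Atp6v0d2 and Spp1, the 2 called genes of each list and the 6 highest and 6 lowest overall with the largest differences in the same direction in both libraries and at least 50 CPM in 1 population, and the lipid and osteoclast lists whole. Mitochondrial, ribosomal, Gm and Rik genes were left out of the overall ranks. Part of them are described, and some are not reported here. The most variable members' genes and those ordered by Apoe were picked after their values were seen.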

Additional observations from a re-analysis of the deposited data

How the results depend on the processing

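The depth per cell and the 18 members of replicate 2 limit these results. With the rule's own gate in the fit, a choice made after seeing the data, 192 of 220 higher and 370 of 380 lower genes against Arg1 macrophages were kept. Against antigen-presenting macrophages 160 of 208 and 313 of 349 were kept, and against microglia 1857 of 2024 and 2128 of 2256. The wider gate contains all members, so these 2 fits share cells and are not independent. Thinning to 2000 UMIs changed the numbers of called genes most, to 71 higher and 167 lower (Arg1), 47 and 119 (antigen-presenting) and 930 and 1190 (microglia), with fewer genes tested. Without the library block, 107 and 125 genes were higher than in Arg1 and antigen-presenting macrophages. With no filter on low counts, 317 were higher than in antigen-presenting macrophages and 3508 lower than in microglia. Fitted with the 2 populations alone, 3585 were lower than in microglia. The cause was not tested. DESeq2 kept every count within 1.5 times of edgeR's. The gate at 40 per 10,000 was not fitted, since replicate 2 held 5 cells.

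The share of members in replicate 1 was 8.94% with Gpnmb at 10 or more, 4.23% at 40 or more, 6.96% with the microglia score under 5, 8.29% without the top doublet scores and 9.38% among cells with at least 2000 UMIs and 1000 genes. In replicate 2 it was 0.455% and 0.0632% at the first and second of these thresholds.

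Directions reversed for the following genes, of which Ostm1 alone was called in the reported fit. Thinning gave Mitf -0.10 (Arg1), 0.029 (antigen-presenting) and 0.023 (microglia), Tfe3 0.76 and 0.23, Nfatc1 0.35, Pnpla2 0.13 and Tnfrsf11a 0.00018. Mitf against Arg1 macrophages was -0.079 with the rule's gate, -0.019 without the top doublet scores and -0.00150 without the block. Dgat1 was -0.027 with the rule's gate, and Acsl1 -0.15 with 2 populations alone. Without replicate 1, Ostm1 against microglia was -0.12, and without replicate 2 it was 0.57. Only called genes were checked by single library in this way. Uncalled genes that changed sign include Spp1 and Fabp3 against Arg1 macrophages, at -0.073 and -0.024 in replicate 2.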
